A study of Mus musculus with 8 samples.

Results

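The hypoxia-inducible factor (HIF) system was examined in mouse CD8+ T cells through 9 genes: the alpha subunits *Hif1a*, *Epas1* and *Hif3a*, the beta subunit *Arnt*, the prolyl hydroxylases *Egln1*, *Egln2* and *Egln3*, the asparagine hydroxylase *Hif1an* and the ubiquitin ligase subunit *Vhl*. The genes were picked by symbol from the 22520 rows of the expression table, and each of the 9 symbols matched 1 row. The cells were purified from spleen and kept under persistent stimulation with anti-CD3 and anti-CD28 antibodies and IL-2 until day 6 in both groups. From day 3, the medium held 40 µM DADA (diisopropylamine dichloroacetate, an inhibitor of pyruvate dehydrogenase kinase) or an equal volume of the solvent DMSO. Bulk RNA-seq gave 4 libraries per group, titled Ctrl-1 to Ctrl-4 and DADA-1 to DADA-4 and called DMSO 1 to 4 and DADA 1 to 4 here. The genotype field reads control for the former and model for the latter, although the stated difference is the treatment. The donors are described as wild-type mice. The study's methods list male C57BL/6J mice among several strains, all aged 6 to 8 weeks, without tying a strain to these libraries, and the number of mice is not given in the sources used here. Culture on antibody for 6 days is a model of exhaustion outside the animal. The oxygen level of the cultures is not given either. The replicates are called biological by the submitters, but nothing says that they came from separate mice, so the spread between them may be partly technical.

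HIF is a transcription factor made of an oxygen-controlled alpha subunit and the constitutive beta subunit ARNT. When oxygen is present, the EGLN enzymes (also called PHD) use it together with 2-oxoglutarate to hydroxylate prolines of the alpha subunit, VHL binds the hydroxylated protein, and the alpha subunit is degraded. HIF1AN (also called FIH) hydroxylates an asparagine and so blocks the binding of coactivators. *Egln3* and *Egln1* are themselves known HIF target genes, and in T cells HIF-1α is also raised by T cell receptor signalling in the presence of oxygen. The table measures transcripts, and HIF activity is mainly controlled through the alpha subunit protein, which was not measured here.

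Values are FPKM (fragments relative to both the length of a transcript and the depth of its library), and each log2 fold change is a difference of mean log2(FPKM + 1), which understates the change of genes with low values. FPKM carries no counts, and the depth inferred from the spacing of low values was 13.6M to 16.4M mapped fragments per library with DMSO and 14.8M to 18.5M with DADA. Of the 10666 genes at 1 FPKM or more in at least 4 of the 8 libraries, 66.2% were called (limma, adjusted p-value under 0.05), 30.9% as higher and 35.3% as lower with DADA. The groups did not overlap in 60.6% of the genes tested, with all DADA libraries above in 28.4% and all below in 32.2%. The median log2 fold change of all genes tested was -0.02. The 5 markers of CD8 T cells (*Cd3d*, *Cd3e*, *Cd3g*, *Cd8a* and *Cd8b1*) all exceeded 1 FPKM and summed to 674 to 680 FPKM with DMSO and to 776 to 805 FPKM with DADA. The markers of other cells were low: 0.186 to 0.513 FPKM in sum for CD4 T cells, at most 0.336 for NK cells, 0.426 for erythroid cells, 0.0271 for endothelial cells and 0.193 for fibroblasts. The B cell gene *Cd79b* was higher than these, with means of 3.08 FPKM with DMSO and 2.69 FPKM with DADA. The 6 myeloid markers summed to 3.51 to 3.99 FPKM with DMSO and 5.15 to 5.72 FPKM with DADA, nearly all of it *Cd68*, while *Csf1r* and *Adgre1* were at 0 in every library.

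All 9 genes had a higher mean with DADA, and 8 of the 9 passed the filter. Of these 8, 7 were among the genes called higher, none was lower, and *Arnt* was not called. The background for this count is the 30.9% of all tested genes that were called higher. In 7 of the 9 genes all DADA libraries lay above all DMSO libraries, as in 28.4% of the genes tested. The median log2 fold change of the 8 genes was 0.40. Since the group was proposed with the DADA and DMSO values of these libraries known, this count and the values that follow describe the genes and are not a test of them, and no p-values are given for them. In bulk RNA, more RNA per cell and more cells with a transcript cannot be told apart.

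**Figure D1:**
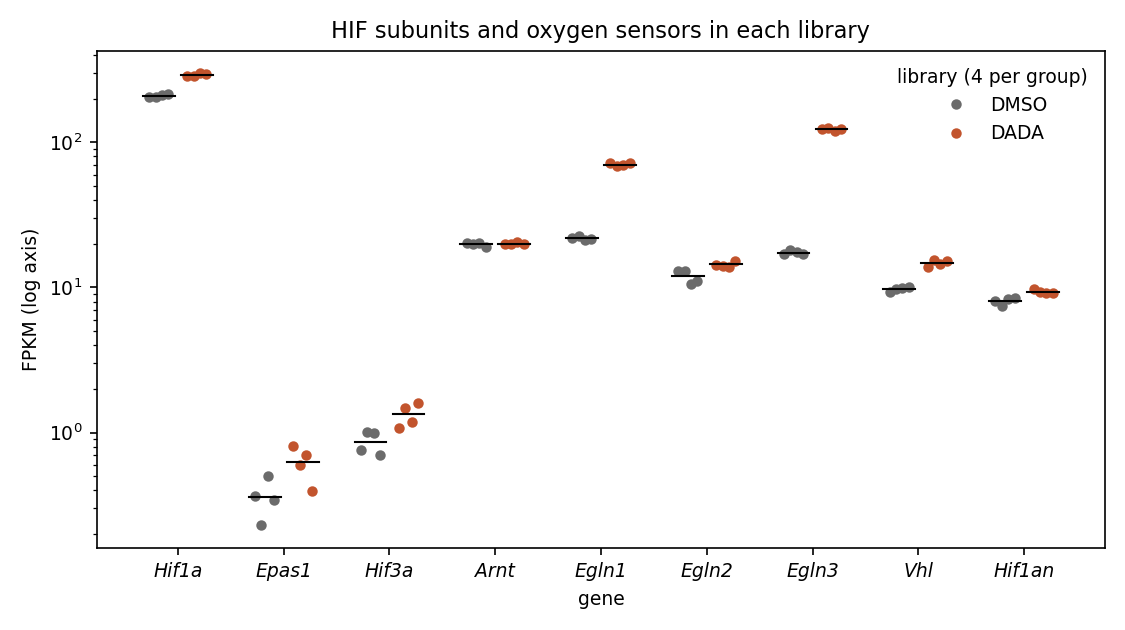
FPKM (log axis) of each of the 9 genes in the 4 DMSO (grey) and 4 DADA (orange) libraries, with the group mean as a black line. *Egln3* and *Egln1* moved the most, *Arnt* stayed at about 20 FPKM, and only *Arnt* and *Epas1* overlapped between the groups.

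*Hif1a* (ENSMUSG00000021109), which encodes the HIF-1α subunit, was by far the most abundant of the 9 transcripts. It was at 205, 205, 214 and 217 FPKM in DMSO 1 to 4 and at 289, 289, 299 and 294 FPKM in DADA 1 to 4. The groups were well separated, and the lowest DADA library exceeded the highest DMSO library by more than the range of either group. The means were 210.2 ± 5.91 and 292.6 ± 4.98 FPKM (SD, n = 4 each), a rise of 1.39 times with a log2 fold change of 0.48 (standard error 0.0248). In the order of level among all 22520 rows, *Hif1a* stood at 260 with DMSO and at 192 with DADA. In GENCODE M21 an antisense gene shares 330 exon bases with *Hif1a* and a further gene on the same strand shares 148, and neither has a row in the table. The strand setting of the counting is not given, so fragments of the antisense gene cannot be told apart from those of *Hif1a*.

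*Epas1* (ENSMUSG00000024140), which encodes HIF-2α, a subunit typical of endothelial cells, stayed below 1 FPKM in all 8 libraries and did not pass the filter. It was at 0.364, 0.230, 0.504 and 0.345 FPKM with DMSO and at 0.809, 0.596, 0.704 and 0.393 FPKM with DADA. DADA 4 lay within the range of the DMSO libraries, so the groups overlapped. In a fit with no filter, where 48.7% of genes were called, *Epas1* was among them with a log2 fold change of 0.25 (standard error 0.0888). The endothelial markers *Cdh5* and *Emcn* were at 0 in every library. *Hif3a* (ENSMUSG00000004328), whose products include dominant-negative forms that restrain HIF, was at 0.760, 1.01, 0.992 and 0.700 FPKM with DMSO and at 1.07, 1.48, 1.19 and 1.59 FPKM with DADA. The groups did not overlap, but the gap between 1.01 and 1.07 FPKM was smaller than the spread within either group. The log2 fold change of *Hif3a* was 0.32 (standard error 0.0932). It passed the filter through the 4 DADA libraries and DMSO 2, which ties its presence among the genes tested to its difference. The log2 fold change of *Hif3a* was 0.57 with a pseudocount of 0.1, and 0.09 with quantile normalization, where it was no longer called. The estimated depth was also higher with DADA, and its part in the values of these low transcripts was not tested.

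*Hif1a* made up 99.4% ± 0.0913 (SD, n = 4) of the summed FPKM of the 3 alpha subunits with DMSO and 99.3% ± 0.0376 (SD, n = 4) with DADA. The share overlapped between the groups. At the transcript level the alpha subunit pool of these CD8+ T cells was therefore almost wholly *Hif1a* in each library, whichever treatment it had.

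*Arnt* (ENSMUSG00000015522), which encodes the common partner of the alpha subunits, was at 20.3, 20.03, 20.2 and 19.0 FPKM with DMSO and at 20.1, 19.9, 20.5 and 19.8 FPKM with DADA. The groups overlapped, and the means were 19.9 ± 0.609 and 20.1 ± 0.321 FPKM (SD, n = 4 each). Its log2 fold change was 0.02 (standard error 0.0305). The FPKM ratio of *Hif1a* to *Arnt* within a library is not changed by a common factor that scales the whole library. It went from 10.6 ± 0.594 to 14.6 ± 0.198, with no overlap between 10.1 to 11.4 with DMSO and 14.4 to 14.8 with DADA.

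The prolyl hydroxylases carried the largest changes of the group. *Egln3* (ENSMUSG00000035105), which encodes PHD3, was at 16.9, 18.2, 17.5 and 17.1 FPKM with DMSO and at 123, 125, 120.0 and 123 FPKM with DADA. Every DADA library was far above every DMSO library, and the replicates within a group were close, with a coefficient of variation of 3.31% with DMSO and 1.83% with DADA. The mean rose 7.06 times, from 17.4 ± 0.576 to 123 ± 2.26 FPKM (SD, n = 4 each), with a log2 fold change of 2.75 (standard error 0.0283). By log2 fold change, 38 of the 10666 genes tested rose more than *Egln3*.

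*Egln1* (ENSMUSG00000031987), which encodes PHD2, regarded as the main enzyme that holds HIF-1α low in oxygen, was at 21.8, 22.6, 21.3 and 21.5 FPKM with DMSO. With DADA it was at 71.5, 68.8, 69.4 and 71.5 FPKM, again with no overlap. The mean rose 3.23 times, from 21.8 ± 0.567 to 70.3 ± 1.40 FPKM (SD, n = 4 each), with a log2 fold change of 1.65 (standard error 0.0271), and 131 genes rose more. *Egln2* (ENSMUSG00000058709), which encodes PHD1, differed much less: 12.9, 13.1, 10.6 and 11.1 FPKM with DMSO against 14.3, 14.2, 13.9 and 15.3 FPKM with DADA. The groups did not overlap, but the gap between them (13.1 to 13.9 FPKM) was narrower than the spread of the DMSO libraries. The log2 fold change of *Egln2* was 0.26 (standard error 0.0649). It was 0.21 without DMSO 3 and 0.30 without DMSO 2, the lowest and highest values when a library was left out.

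The make-up of the prolyl hydroxylase transcripts changed with these unequal rises. *Egln1* held the largest share with DMSO, 42.6% ± 0.647 (SD, n = 4) of the summed FPKM of the 3 genes, followed by *Egln3* with 34.1% ± 1.09 and *Egln2* with 23.3% ± 1.63. With DADA, *Egln3* was first with 59.2% ± 0.661, followed by *Egln1* with 33.8% ± 0.557 and *Egln2* with 6.93% ± 0.229. None of the 3 shares overlapped between the groups. The summed level went from 51.2 ± 2.04 to 207.7 ± 3.05 FPKM, 4.06 times. Within a library, *Hif1a* was 4.12 ± 0.266 times the summed hydroxylase level with DMSO and 1.409 ± 0.0417 times with DADA. The summed transcripts of the 3 prolyl hydroxylases thus gained on *Hif1a* in all 4 DADA libraries. The gain came from *Egln3* and *Egln1*, since the mean of *Egln2* rose 1.21 times, less than the 1.39 times of *Hif1a*.

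**Figure D2:**
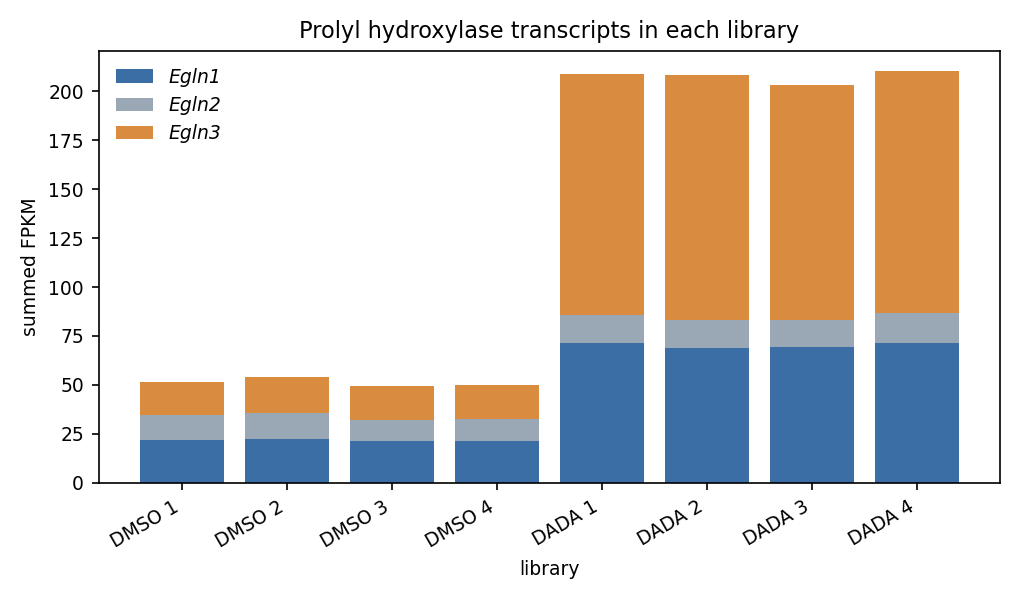
Stacked FPKM of *Egln1*, *Egln2* and *Egln3* in each of the 8 libraries. The stack is 49.4 to 53.9 FPKM high with DMSO and 203 to 210.2 FPKM high with DADA, and the *Egln3* part grows from 34.1% of it to 59.2% on average.

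*Vhl* (ENSMUSG00000033933), the subunit that recognises hydroxylated HIF alpha, was at 9.26, 9.77, 9.85 and 10.1 FPKM with DMSO and at 13.9, 15.4, 14.6 and 15.2 FPKM with DADA. The groups did not overlap. The mean rose 1.51 times, from 9.75 ± 0.363 to 14.8 ± 0.668 FPKM (SD, n = 4 each), with a log2 fold change of 0.55 (standard error 0.0418). The FPKM ratio of *Hif1a* to *Vhl* was 21.6 ± 0.476 with DMSO and 19.8 ± 0.933 with DADA, a smaller shift than for the other ratios of *Hif1a*, although every DADA library was below the DMSO range. *Hif1an* (ENSMUSG00000036450) was at 8.10, 7.46, 8.32 and 8.46 FPKM with DMSO and at 9.77, 9.24, 9.18 and 9.22 FPKM with DADA. The groups did not overlap, and the log2 fold change of 0.19 (standard error 0.0446) was the smallest among the 7 genes called.

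**Figure D3:**
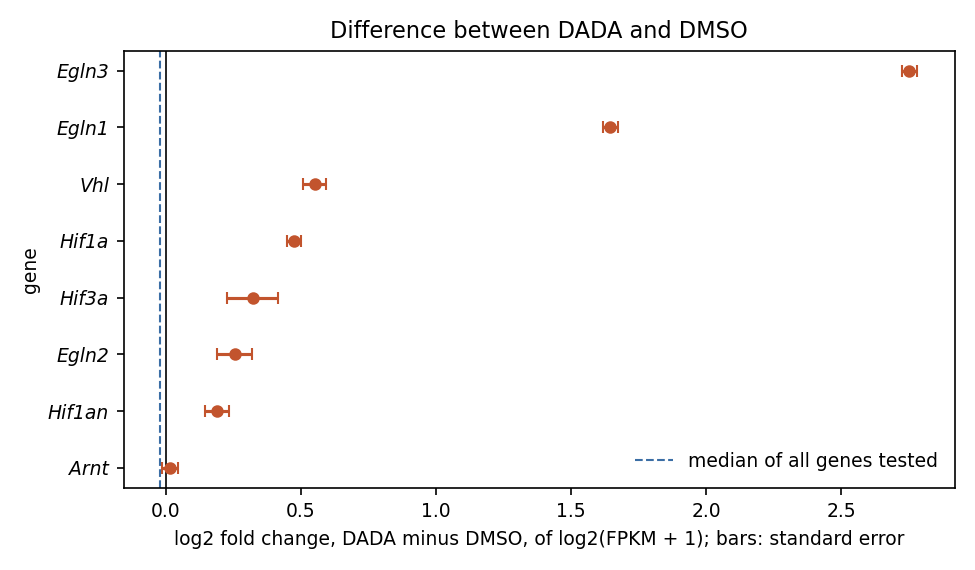
Log2 fold change (DADA minus DMSO, on the log2(FPKM + 1) scale) of the 8 genes past the filter, with bars for the standard error, and the median of all genes tested as a dashed line. *Egln3* (2.75) and *Egln1* (1.65) stand apart from the other genes, which lie between 0.02 and 0.55.

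FPKM is scaled to transcript length, so the levels of the genes can be set side by side. With DMSO the order was *Hif1a*, *Egln1*, *Arnt*, *Egln3*, *Egln2*, *Vhl*, *Hif1an*, *Hif3a* and *Epas1*, and no gene overlapped with its neighbour in that order over the 4 libraries. With DADA, *Egln3* stood after *Hif1a*, before *Egln1*, *Arnt*, *Vhl*, *Egln2*, *Hif1an*, *Hif3a* and *Epas1*. There, *Vhl* (13.9 to 15.4 FPKM) and *Egln2* (13.9 to 15.3 FPKM) did not differ beyond their spread, and the other neighbours did not overlap. The ratio of *Egln3* to *Egln1* went from 0.799 ± 0.0188 to 1.75 ± 0.0485 (SD, n = 4 each).

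The bases before the transcription start were read for the core of the HIF response element, ACGTG or GCGTG on either strand. RefSeq (GRCm38.p6) gave 9 promoter windows for 8 of the 9 genes, 2 of them for *Egln2*. The submitters' processing notes name GRCm39, so these coordinates are those of the RefSeq table and not of the expression table. Over the 250 bases before the start, 7 of the 9 windows held the core, where 38.6% of all 32851 windows in the RefSeq table and 57.4% of those of the genes tested did. The windows of *Vhl* and *Hif1an* held none. Those of *Egln2*, whose log2 fold change was only 0.26, held 1 and 4 cores, and that of *Hif3a* held 2. A match is only a run of letters, and no binding was measured. The 250 bases before the start of *Egln3*, the gene with the largest rise, are shown on the minus strand (chr12:54203875-54204124), 5′ to 3′, with the core in capitals 229 bases before the start.
Egln3: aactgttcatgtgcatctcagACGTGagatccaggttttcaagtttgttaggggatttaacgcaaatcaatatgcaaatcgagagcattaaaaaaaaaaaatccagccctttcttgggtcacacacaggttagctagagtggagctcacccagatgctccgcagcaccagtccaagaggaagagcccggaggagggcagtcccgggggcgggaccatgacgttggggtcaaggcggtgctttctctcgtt

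Shorter windows around the cores follow for *Egln1*, *Hif1a* and *Arnt*, and those of *Egln2* and *Hif3a* are not printed. The printed windows are again 5′ to 3′ on the strand of the gene, with the core in capitals. In *Egln1* (minus strand), the cores began 126 bases (chr8:124949364-124949392) and 68 bases (chr8:124949306-124949334) before the start. In *Hif1a* (plus strand), they began 135 bases (chr12:73907721-73907748) and 70 bases (chr12:73907785-73907813) before it, and the former reads as a core on both strands. *Arnt*, which was not called, is shown beside them and also had a core, of the GCGTG form, 29 bases before its start (plus strand, chr3:95434349-95434377).
Egln1, 126 bases before: gcccggcccgccGCGTGcgcgcggccccc
Egln1, 68 bases before: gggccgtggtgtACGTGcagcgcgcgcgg
Hif1a, 135 bases before: acacagacaagCACGTGagcggggcagc
Hif1a, 70 bases before: tggctgagagcaACGTGggctggggtggg
Arnt, 29 bases before: ccatagtttgggGCGTGtcttctgcccag

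The transcripts whose pattern over the 8 libraries was most like that of *Egln3* were *Ifi209*, *Dhx58* and *Aldoc*. Likeness was measured as the root-mean-square distance between the log2(FPKM + 1) values, each taken relative to the gene's own DMSO mean. The distance was 0.0474 for *Ifi209*, an interferon-inducible gene, 0.0595 for *Dhx58*, which encodes the RNA sensor LGP2, and 0.0680 for *Aldoc*, an aldolase of glycolysis, beside a median of 1.96 over all genes tested. This measure mainly finds genes with the same fold change. *Ifi209* had means of 2.78 ± 0.0879 and 24.8 ± 0.447 FPKM in the DMSO and DADA groups (SD, n = 4 each), a level well below that of *Egln3*.

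Other proteins that act on HIF were covered by a list of 23 regulators, of which 22 passed the filter. With DADA, 4 were called higher, 9 lower and 9 were not called, beside 30.9% higher and 35.3% lower over all genes tested. The median log2 fold change of the regulators was -0.07, close to the -0.02 of all genes tested. The 4 higher genes were *Os9*, a lectin of the endoplasmic reticulum that has been linked to HIF-1α hydroxylation, the coactivators *Ep300* and *Ncoa1*, and *Cited2*, which competes with HIF for p300 and CBP. *Os9* rose from 37.1 ± 1.90 to 61.9 ± 1.49 FPKM (log2 fold change 0.72, limma, adjusted p = 8.02e-08). *Cited2* rose from 5.00 ± 0.474 to 7.88 ± 0.142 FPKM (log2 fold change 0.57, limma, adjusted p = 1.28e-05), and *Ep300* from 12.3 ± 0.409 to 16.3 ± 0.380 FPKM (log2 fold change 0.37, limma, adjusted p = 5.54e-06). *Ncoa1* differed by 0.13 on the log2 scale (limma, adjusted p = 0.0252), and the call was lost with quantile normalization (0.08). It was also lost on removal of DMSO 1 (0.11), DMSO 2 (0.13), DMSO 4 (0.11) or DADA 4 (0.13). *Ep300* and *Ncoa1* were singled out after their values were seen. This list of regulators and the lists below were also chosen with earlier results of these data known. Their counts are therefore descriptions and not tests. Genes were named from them by the size of their change or after their values were seen. The adjusted p-values of these genes come from the fit across all genes.

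The partners of VHL in its ubiquitin ligase did not follow *Vhl*. *Cul2*, the cullin scaffold, fell from 57.4 ± 0.783 to 39.0 ± 1.22 FPKM (SD, n = 4 each) (log2 fold change -0.55, limma, adjusted p = 6.69e-08), with no overlap between the groups. The adaptors *Elob* and *Eloc* and the RING subunit *Rbx1* were singled out after their values were seen. *Elob* differed by -0.13 on the log2 scale (limma, adjusted p = 0.0169), with overlap between the groups. *Eloc* was at 64.3 ± 3.13 and 60.1 ± 1.64 FPKM, with a log2 fold change of -0.10 whose call (limma, adjusted p = 0.0394) was lost under the 3 other scalings (-0.08 to -0.05), without a filter and without the trend. Removal of DMSO 1 (-0.09), DMSO 2 (-0.10), DMSO 4 (-0.07), DADA 1 (-0.09) or DADA 3 (-0.08) ended it too. *Rbx1* was at 36.6 ± 1.47 and 38.3 ± 1.58 FPKM and was not called (log2 fold change 0.06, limma, adjusted p = 0.165), but was called higher with libraries rescaled to the same sum (0.09) and with quantile normalization (0.10). *Senp1*, a SUMO protease that acts on HIF-1α, fell from 27.2 ± 0.574 to 20.2 ± 0.656 FPKM (log2 fold change -0.41, limma, adjusted p = 1.48e-06).

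HIF target genes outside glycolysis were followed through a list of 29, of which 25 passed the filter. Of these, 24 were called higher and none lower with DADA, beside 30.9% of all tested genes called higher. The median log2 fold change of the 25 was 1.38. As the list was chosen with earlier results known, this count describes the genes and is not a test of them. Of the 24, *Adm*, which encodes the vasodilator peptide adrenomedullin, passed the filter only through the DADA libraries, where it was high (1.63 to 2.58 FPKM, against 0 to 0.0968 FPKM with DMSO), and without any one DADA library 23 of 24 genes were called. *Adm* was singled out after its values were seen. The listed genes under the filter showed no such rise, and their groups overlapped. The DMSO and DADA means were 0.339 and 0.329 FPKM for *Car9*, 0.115 and 0.168 for *Loxl2*, 0.362 and 0.0622 for *Epo*, and 0 and 0.00643 for *Edn1*. In the fit with no filter, where 48.7% of genes were called, 24 of the 29 were called higher and none of these was called. *Hilpda*, which inhibits lipolysis at lipid droplets, rose from 8.40 ± 1.08 to 113.6 ± 3.44 FPKM (SD, n = 4 each) (log2 fold change 3.62, limma, adjusted p = 1.05e-10). *P4ha2*, a prolyl hydroxylase of collagen that does not act on HIF, rose from 1.61 ± 0.109 to 26.4 ± 0.906 FPKM (log2 fold change 3.39, limma, adjusted p = 5.12e-12). *Stc2*, singled out after its values were seen as the gene not called, was at 21.0 ± 0.400 and 20.8 ± 0.888 FPKM (log2 fold change -0.01, limma, adjusted p = 0.720).

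The glycolytic target genes went both ways. All 20 passed the filter, and 14 were called higher and 5 lower, beside 30.9% and 35.3% of all genes tested. *Eno2* was not called (log2 fold change 0.11, limma, adjusted p = 0.313), and the median log2 fold change was 0.99. *Slc2a3*, a glucose transporter, rose from 27.6 ± 2.23 to 177.6 ± 4.52 FPKM (log2 fold change 2.65, limma, adjusted p = 5.72e-11), and *Aldoc* differed by 2.76 on the log2 scale (limma, adjusted p = 1.35e-11). The 5 lower genes were the glucose transporter *Slc2a1*, the pyruvate kinase *Pkm*, the hexokinases *Hk1* and *Hk2* and the pyruvate dehydrogenase kinase *Pdk1*. *Slc2a1* and *Pkm* fell the most, with log2 fold changes of -1.96 (limma, adjusted p = 4.75e-11) and -1.34 (limma, adjusted p = 3.08e-11), while *Hk1*, *Hk2* and *Pdk1*, singled out after their values were seen, lay between -1.10 and -1.06. The hydroxylases *Egln1* and *Egln3* thus moved with most, but not all, of the genes known as HIF targets.

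**Figure D4:**
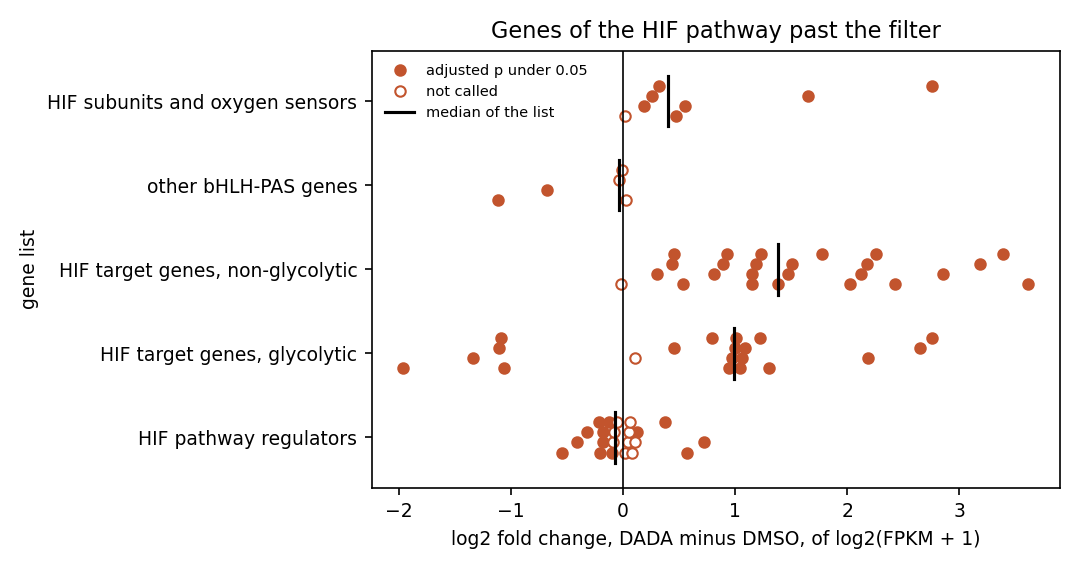
Log2 fold change (DADA minus DMSO) of every gene past the filter in the 4 pathway lists and among the 9 genes described here; filled points were called (adjusted p under 0.05), open points were not, and black lines mark medians. The non-glycolytic target genes lie almost entirely to the right of 0, the regulators centre near 0 (median -0.07), and 5 glycolytic genes lie to the left.

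The other genes of the bHLH-PAS family, to which the HIF subunits belong, were mostly at low levels. Of 11 genes, 5 passed the filter, none was called higher and 2 were called lower, beside 35.3% of all tested genes. *Npas4*, an activity-dependent factor best known from neurons, fell from 2.70 ± 0.249 to 0.712 ± 0.114 FPKM (SD, n = 4 each) (log2 fold change -1.11, limma, adjusted p = 4.77e-07). *Bmal2*, a circadian clock factor, was at 2.08 ± 0.580 and 0.914 ± 0.210 FPKM (log2 fold change -0.68, limma, adjusted p = 9.36e-04). *Npas4* passed the filter only through the DMSO libraries, where it was high, and left the test when any of them was removed. *Bmal2* passed through the DMSO libraries, where it was high, and DADA 4 (1.22 FPKM). It was at 0.753 to 0.895 FPKM in the other DADA libraries.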

How the data were processed

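The authors deposited 1 table of FPKM values, with a column for each of the 8 libraries and 22520 rows, of which 6353 were at 0 in every library. Reads were paired, of 150 bases. The submitters' processing notes name CASAVA 1.8.2, FastQC 0.11.9, HISAT2 2.0.5, StringTie 1.3.3, Picard 1.41, SAMtools 0.1.18 and the builds GRCh38 and GRCm39, with no role given. The labels and the methods name different library kits, and the strand setting is not given. FPKM holds no counts, so no count test was run. The depth was read from the low values of 4431 genes with 1 transcript in GENCODE M21, as that at which most values came close to 1 fragment. At this depth, 39.8% to 48.3% of the 344 to 399 low values per library lay within 0.1 of a whole fragment. Evenly spread values would give 20%, but the depth was fitted to the same values. The excess is therefore no check of the depth, which is an estimate.

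Genes at 1 FPKM or more in at least 4 libraries were fitted as log2(FPKM + 1) with limma 3.58.1 (R 4.3.3), using moderated variances with a trend on the mean level, and p-values were adjusted by Benjamini-Hochberg over all genes tested. The fit was run on simulated data with independent noise and few changed genes. That setting differs from these libraries, so the run does not check the number of calls. The genes and lists were chosen with earlier results of these data known. The genes named were the 9 genes, the 2 called genes that moved furthest each way within a list, and the 3 genes most like the gene with the largest rise. The same was planned for the gene with the largest fall, but none fell. Alternatives were a pseudocount of 0.1, no filter, a mean of at least 5 FPKM, 3 other scalings, no trend, a replicate block and each library left out. Python 3.11.15, pandas 2.3.3 and matplotlib 3.10.9 were used. For B cells, 1 marker and the sum that holds it are not reported here.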

Additional observations from a re-analysis of the deposited data

Results flagged for a closer look

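In 7 of 92 groups of 4 libraries examined, 1 library lay far from the other 3, by its gap divided by the range of the group (Dixon's ratio). By chance alone, about 1 in 20 groups would be picked out, or 4.6 of these, and the groups are not independent. *Hif1an* was at 9.77 FPKM in DADA 1 and at 9.18 to 9.24 FPKM in the other DADA libraries (ratio 0.908). *P4ha2* was at 27.7 FPKM in DADA 1 against 25.8 to 26.1 FPKM (0.875), and *Aldoc* at 19.2 FPKM in DADA 2 against 20.3 to 20.4 FPKM (0.863). The share of *Egln1* among the prolyl hydroxylase transcripts was 33.0% in DADA 2 against 34.0% to 34.2% (0.833), and the ratio of *Egln3* to *Egln1* in the same library was 1.82 against 1.72 to 1.73 (0.930). The share of *Egln2* was 7.28% in DADA 4 against 6.79% to 6.84% (0.905). The ratio of *Hif1a* to *Hif1an* was 27.5 in DMSO 2 against 25.3 to 25.7 (0.850). In each case all 4 libraries of the group stayed on the same side of the other group.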

How the results depend on the processing

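Of 95 counts of calls recomputed under the alternatives, 91 stayed within 1.5 times the reported count, and of 472 values of single genes, 449 kept their direction and their side of the threshold. The count for the other bHLH-PAS genes was between 1 and 2 with each library left out, and it was 1 without any of the DMSO libraries, when *Npas4* no longer passed the filter. With a mean of at least 5 FPKM, none of those genes was left to test. Among the genes named, the sign of the log2 fold change turned only in *Arnt* and *Stc2*, neither of which was called. *Arnt* had -0.0053 without DMSO 4 (0.0053 to 0.026 with another library left out), and *Stc2* had 0.016 with libraries rescaled to the same sum, 0.0050 with median-ratio scaling, 0.00013 with quantile normalization and 0.014 without DADA 3 (-0.032 to -0.0046 with another library left out). *Hif3a* lost its call with quantile normalization, and *Rbx1* gained one under 2 scalings. The log2 fold change of *Egln3* stayed between 2.74 and 2.81 and that of *Egln1* between 1.64 and 1.69 over 16 alternatives. With the replicate number as a block, 6995 genes were called against 7064, and the count of called genes among the 9 stayed at 7. Same-numbered libraries did not deviate together (correlations across genes between -0.12 and 0.095). With 4 libraries per group of unstated origin, this cannot show whether same-numbered libraries shared a mouse or a culture. *Epas1* and *Hif3a* were the lowest of the 9 genes, and how far depth limits their values was not tested.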
